A study of Mus musculus with 5 samples.

Results

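Hypoxia-state tumour epithelial cells are the tumour cells with the highest summed transcripts of Ndrg1, P4ha2 and Bnip3 in mouse mammary tumours grown from the SSM2 cell line. They were chosen by measured values, as the 10% of a pool of non-mitotic tumour cells in each library with the highest share of these 3 transcripts. They numbered 806 of the 24022 barcodes in the 5 libraries, with 241 in Progesterone 2, 275 in Progesterone 3 and 290 in Placebo 2. The comparator, called low-score cells below, was the 50% of the same pool with the lowest share, which came to 1204, 1373 and 1450 cells in that order of libraries. SSM2 is a mouse mammary tumour line, and 100000 cells were injected into a mammary gland of mice aged 10 to 12 weeks. Mice also carried a slow-release pellet of 60 mg under the skin, made to last 60 days, which held progesterone (P4) for Progesterone 2 and Progesterone 3 and was a placebo pellet for Placebo 2. Tumours were collected 28 to 62 days later, so the groups share 1 cell line and 1 site of growth, and the labels give no host strain and no time for each library. Placebo 2 alone stands for placebo. The names on the deposited matrices of the progesterone pair are alike except for L or R, and no label states that they came from separate animals. What the p-values below set the treatments against is therefore the spread between 2 libraries that may be technical replicates.

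Cells that lack oxygen stabilise hypoxia-inducible factor (HIF), because the prolyl hydroxylases that mark it for degradation need oxygen. HIF then binds a short core motif near its target genes and raises glucose uptake, glycolysis, vessel growth factors and mitophagy, while oxidative metabolism and growth are restrained. In solid tumours such cells are known to lie far from perfused vessels. Ndrg1 is a stress-induced protein that is widely used as a hypoxia marker, P4ha2 is a subunit of the prolyl 4-hydroxylase that modifies collagen, and Bnip3 is a mitochondrial receptor for mitophagy.

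The 3 libraries of batch 2 held 5470 to 5857 barcodes and 182845008 to 204786073 counted molecules (UMIs). Pairs of these libraries shared 7 to 12 cell barcodes. Of the hypoxia-state cells 0, 1 and 3 scored as doublets in Progesterone 2, Progesterone 3 and Placebo 2. The label of epithelial cells was checked with 9 epithelial markers outside the rule, such as Cdh1 and Cldn7. Their summed level was 6271, 6319 and 5384 CPM (counts scaled to a common library total) in hypoxia-state cells. In barcodes with at least 2 Ptprc UMIs it was 217 to 254 CPM. Those barcodes were also limited to under 0.4% of UMIs from Krt8, Krt18, Krt19 and Epcam. This contrast was therefore in part set by the choice of barcodes. The 14 macrophage markers summed to 70.5 to 112 CPM in hypoxia-state cells, to 81.0 to 91.7 CPM in low-score cells and to 26130 to 40970 CPM in those Ptprc-positive barcodes. The defining macrophage gene C1qa stood at 2.38 to 5.17 CPM in hypoxia-state cells and 4.47 to 5.08 CPM in low-score cells. T cell, B cell, neutrophil and erythroid lists summed to at most 6.37 CPM in hypoxia-state cells, and Nkg7, Ms4a1, Csf3r and Hbb-bt among them had no UMI there. Fibroblast markers summed to 15.7, 15.9 and 80.7 CPM in hypoxia-state cells of Progesterone 2, Progesterone 3 and Placebo 2, against 16.7, 15.0 and 197 CPM in low-score cells.

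The promoters of genes that stood high in these cells are shown first, because HIF binds the core letters ACGTG or GCGTG. The sequences are RefSeq's for GRCm38.p6, cover the 250 bases before the annotated start and read 5′ to 3′ along the gene. This start can differ from the GENCODE M21 gene coordinates used further below. By those coordinates the windows of P4ha2 (gene at chr11:54100095-54131665) and Ankrd37 (gene at chr8:45996902-46005707) lie inside the gene. Capitals mark ACGTG or GCGTG on either strand, read as CACGT or CACGC on the other one, and CACGTG holds ACGTG on both strands. P4ha2 (chr11:54100674-54100923, plus strand) and Bnip3 (chr7:138909507-138909756, minus strand) belong to the ranking score. Selenbp1 (chr3:94932833-94933082, plus strand) had the highest ratio outside the score, and Ankrd37 (chr8:45999851-46000100, minus strand) had the highest ratio of the hypoxia-induced list.
P4ha2: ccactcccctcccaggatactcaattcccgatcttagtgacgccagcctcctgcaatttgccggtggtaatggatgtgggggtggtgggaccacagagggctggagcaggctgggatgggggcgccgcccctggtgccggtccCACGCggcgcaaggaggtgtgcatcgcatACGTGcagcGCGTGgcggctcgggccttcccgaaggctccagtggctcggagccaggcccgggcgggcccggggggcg
Bnip3: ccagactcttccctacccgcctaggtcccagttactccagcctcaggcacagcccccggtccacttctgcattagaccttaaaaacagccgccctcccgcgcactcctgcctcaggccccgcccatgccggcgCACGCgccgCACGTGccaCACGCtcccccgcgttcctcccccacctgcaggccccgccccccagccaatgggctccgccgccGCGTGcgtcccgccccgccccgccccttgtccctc
Selenbp1: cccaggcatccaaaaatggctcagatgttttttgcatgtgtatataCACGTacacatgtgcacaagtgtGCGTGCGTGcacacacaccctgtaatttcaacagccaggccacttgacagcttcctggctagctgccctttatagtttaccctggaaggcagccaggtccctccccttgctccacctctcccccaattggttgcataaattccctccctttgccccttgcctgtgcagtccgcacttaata
Ankrd37: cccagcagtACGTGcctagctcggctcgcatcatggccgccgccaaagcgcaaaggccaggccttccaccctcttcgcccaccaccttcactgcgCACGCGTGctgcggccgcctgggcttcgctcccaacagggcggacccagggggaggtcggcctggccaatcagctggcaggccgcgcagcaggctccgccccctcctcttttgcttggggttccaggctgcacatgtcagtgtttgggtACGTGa
Each of these 4 windows held ACGTG on at least 1 strand. Over the table of promoters, ACGTG on either strand was present in 16.6% of 32851 windows and in 22.9% of the 8453 windows of genes compared below. It was present in 32.0% of 494 windows of genes higher in hypoxia-state cells, 20.7% of 670 windows of genes lower there and 22.5% of 7289 windows of the other genes. The hypoxia-induced list had it in 46.3% of 41 windows and the glycolysis list in 40.0% of 30. With GCGTG counted as well, the shares were 62.8% for higher genes, 57.6% for lower genes and 58.8% for the others. A match is a description of these letters, and a gene may have several windows. Not all genes that stood high had it: ACGTG was in neither of the 2 windows of Pgf and of Tenm4 and in 1 of the 2 of Vegfa. The windows of F3, Gbe1 and Car12 held neither motif, and Ndrg1 is named only.

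Hypoxia-state cells carried a median of 149, 128 and 98 UMIs of the 3 ranking genes in Progesterone 2, Progesterone 3 and Placebo 2, where low-score cells carried 4, 4 and 8. The median score, the summed CPM of the 3 genes in a cell, was 3192, 2983 and 2921 CPM in hypoxia-state cells, against 84.2, 93.2 and 230 CPM in low-score cells. The score had no gap at the limit of membership. The lowest hypoxia-state cells stood at 2127.5, 2147.4 and 2219.9 CPM and the highest cells outside at 2127.3, 2145.1 and 2201.3, and 25, 41 and 61 hypoxia-state cells lay within 10% of the limit. The limit was 10.3, 9.42 and 4.21 times the pool median of Progesterone 2, Progesterone 3 and Placebo 2, so the placebo pool reached up to it from a higher base. Hypoxia-state cells were somewhat shallower than low-score cells, with median totals of 41556, 37988 and 29810 UMIs against 49408, 41200 and 38598.

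**Figure D1:**
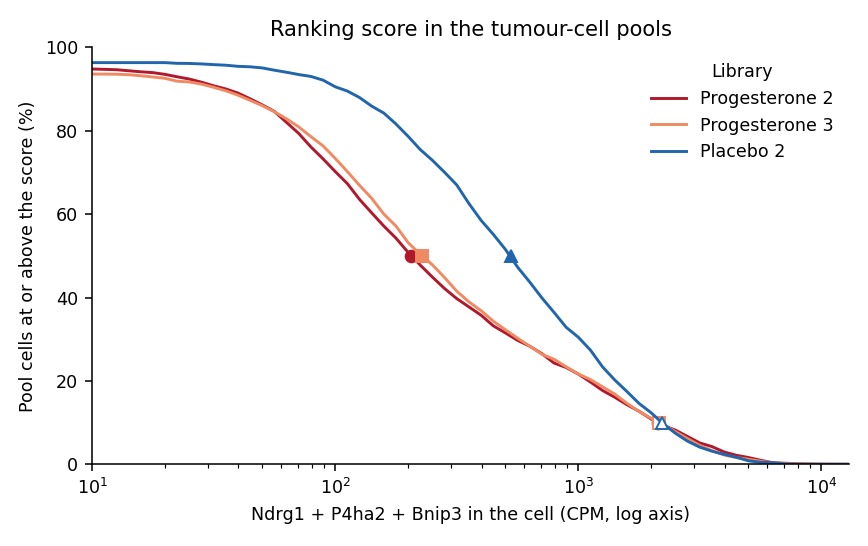
Share of pool cells (%, y axis) at or above a given summed level of Ndrg1, P4ha2 and Bnip3 in CPM of the cell (x axis, log scale), 1 line for each library. Filled symbols mark the pool medians, 206, 228 and 527 CPM in Progesterone 2, Progesterone 3 and Placebo 2, and open symbols mark the limit of membership, which is nearly the same in the 3 libraries.

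The ranking genes are given as levels, with no test, since they chose the cells. Summed over hypoxia-state cells, Ndrg1 (chr15:66929318-66969640, minus strand, GENCODE M21 on GRCm38) had 2212 CPM in Progesterone 2, 2008 CPM in Progesterone 3 and 2110 CPM in Placebo 2, against 47.3, 53.1 and 175 CPM in low-score cells. Bnip3 (chr7:138890836-138909519, minus strand) had 1006, 938 and 935 CPM in hypoxia-state cells and 24.5, 26.5 and 71.6 CPM in low-score cells of the same libraries. P4ha2 (chr11:54100095-54131665, plus strand) had 388, 397 and 128 CPM in hypoxia-state cells and 21.7, 23.9 and 13.9 CPM in low-score cells. Ndrg1 and Bnip3 thus stood at nearly the same level in hypoxia-state cells of all 3 libraries, and P4ha2 was lowest in Placebo 2. Single hypoxia-state cells ranged from 1105 to 3577 CPM of Ndrg1 between the 10th and 90th percentile in Progesterone 2, and from 1370 to 3560 CPM in Placebo 2.

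Among 8260 genes outside the rule with a mean of at least 10 CPM over the 6 sums, 497 were at least 1.5-fold higher in hypoxia-state cells than in low-score cells in each of the 3 libraries, 6.02% of the genes compared. Another 664 genes, 8.04%, were at least 1.5-fold lower in each. "Higher" and "lower" mean this mark in what follows, on a log2(CPM + 1) scale. No test was run on it, because the genes that ranked the cells vary together with others in the same cells. Ratios are medians over the 3 libraries with their SD. The median ratio of all compared genes was -0.0465, -0.0885 and 0.00496 on the log2 scale in Progesterone 2, Progesterone 3 and Placebo 2.

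Both markers of the state outside the score were higher. Selenbp1 (chr3:94933056-94944758, plus strand), a selenium-binding enzyme that oxidises methanethiol, had 155, 196 and 149 CPM in hypoxia-state cells and 3.88, 3.98 and 6.23 CPM in low-score cells, a log2 ratio of 5.00 ± 0.47 (SD, n = 3 libraries). F3 (chr3:121723537-121735048, plus strand), tissue factor, which starts blood coagulation, had 1878, 1541 and 1795 CPM in hypoxia-state cells and 441, 561 and 570 CPM in low-score cells. Its log2 ratio was 1.65 ± 0.32 (SD, n = 3 libraries). F3 was the more widely shared of the pair. Its median single-cell level in low-score cells was 219 to 270 CPM, and it varied from 103 to 4241 CPM between the 10th and 90th percentile of hypoxia-state cells in Progesterone 2. Selenbp1 had a median of 0 in low-score cells of each library, and 72.2, 103 and 102 CPM in single hypoxia-state cells of Progesterone 2, Progesterone 3 and Placebo 2.

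After Selenbp1, the highest ratios belonged to Pgf, placental growth factor, a ligand of the VEGF receptor Flt1, and to Ero1l, the endoplasmic reticulum oxidase that hands disulphides to protein disulphide isomerase. Pgf had 49.5, 49.1 and 6.37 CPM in hypoxia-state cells and 0.760, 0.859 and 0.856 CPM in low-score cells, so its ratio was far larger in the progesterone libraries (4.84 and 4.75) than in Placebo 2 (1.99). Ero1l had 529, 494 and 304 CPM in hypoxia-state cells and 18.3, 19.5 and 34.3 CPM in low-score cells, a log2 ratio of 4.59 ± 0.92. The other 9 of the 12 highest were BC100530, the clock-output factor Dbp, the axon guidance ligand Slit1, Ankrd37, the carbonic anhydrase Car12, C430049B03Rik, the cell-surface protein Tenm4, the glycogen branching enzyme Gbe1 and the glucose transporter Slc2a1. Their median log2 ratios lay between 3.25 for Slc2a1 and 4.24 for BC100530. Gbe1 had the most even ratio of the 12, with 269, 261 and 233 CPM in hypoxia-state cells and 22.3, 25.6 and 22.9 CPM in low-score cells.

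**Figure D2:**
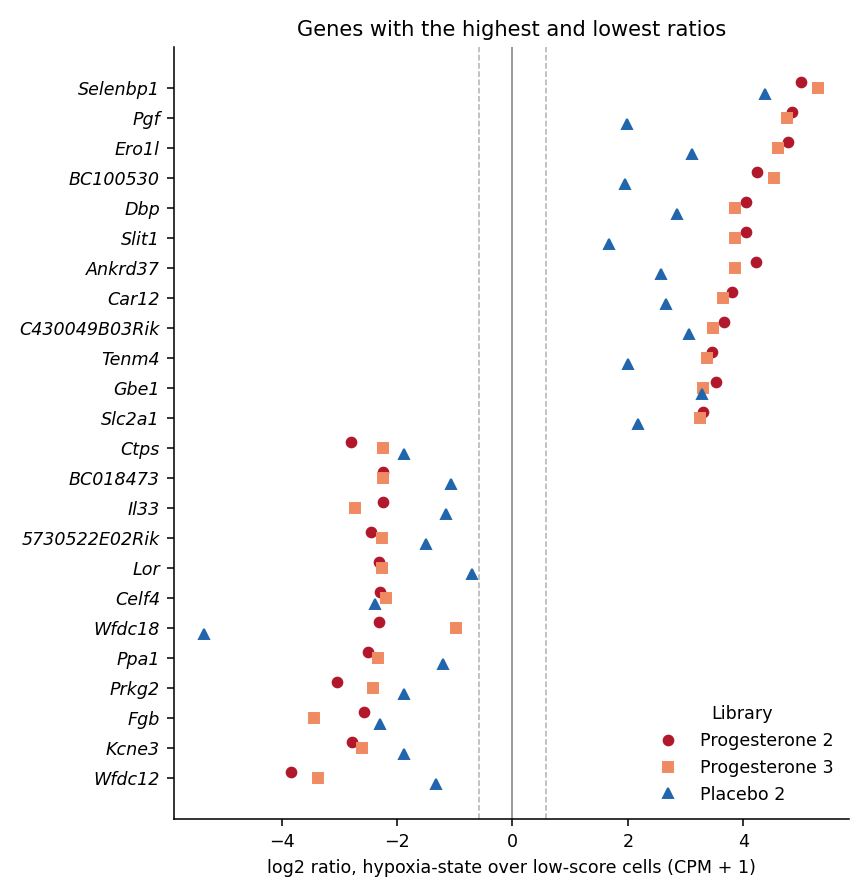
Log2 ratio of hypoxia-state to low-score cells (x axis, summed CPM + 1) for the 12 genes with the highest and the 12 with the lowest median ratio among those past 1.5-fold in each library; symbols are libraries and dashed lines mark 1.5-fold. For each of the 12 highest genes Placebo 2 has the smallest ratio, and for Gbe1 the libraries nearly coincide (log2 3.53, 3.30 and 3.29).

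Of 34 genes listed as hypoxia-induced outside glycolysis, 33 were in the tables under the listed symbol and 23 passed the level limit. Of these, 16 were higher and 1 was lower, where 6.02% of all compared genes were higher, and the list median was 1.72, 1.44 and 1.09 on the log2 scale in Progesterone 2, Progesterone 3 and Placebo 2. Since Ndrg1, P4ha2 and Bnip3 are themselves known HIF targets, this count describes the choice of cells and is no independent evidence of hypoxia. Ankrd37 had 169, 160 and 81.9 CPM in hypoxia-state cells and 8.14, 10.2 and 12.9 CPM in low-score cells. Vegfa, the main growth factor of new vessels, had 547, 401 and 279 CPM in hypoxia-state cells and 62.5, 66.3 and 61.2 CPM in low-score cells. Its low-score level was almost the same in the 3 libraries, while in hypoxia-state cells Progesterone 2 was highest and Placebo 2 lowest. Of the enzymes that limit HIF, Egln1 had 610, 588 and 565 CPM in hypoxia-state cells and 64.8, 64.98 and 101 CPM in low-score cells. Egln3 had 9.51, 4.33 and 135 CPM in hypoxia-state cells and 0.582, 0.397 and 21.9 CPM in low-score cells, and it was far higher in both cell sets of Placebo 2.

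Pdk1, the kinase that keeps pyruvate out of mitochondria, had 41.2, 38.3 and 74.9 CPM in hypoxia-state cells and 7.004, 7.12 and 16.8 CPM in low-score cells. Higd1a, a mitochondrial inner-membrane protein, had 1204, 1119 and 944 CPM in hypoxia-state cells and 152, 153 and 248 CPM in low-score cells. Fam162a, Car12, Mif, Mxi1, Zfp395, Rora, Insig2, the histone demethylase Kdm3a, the lipid-droplet protein Hilpda and the mTOR inhibitor Ddit4 completed the higher genes of the list. Tpbg was the lower one, with 23.6, 22.7 and 15.3 CPM in hypoxia-state cells and 37.3, 36.2 and 31.0 CPM in low-score cells. Several textbook targets were scarce in this cell line. Car9 stood at 1.36 to 4.12 CPM, Adm at 0.562 to 1.61 CPM and Angptl4 at 0.281 to 0.764 CPM in hypoxia-state cells, under the level limit, and Ppp1r3c had no UMI there. Of the HIF machinery, Hif1a had 126, 125 and 243 CPM in hypoxia-state cells and 102, 97.7 and 221 CPM in low-score cells, and Epas1, which encodes HIF-2 alpha, had 24.5, 26.5 and 47.2 CPM in hypoxia-state cells and 30.7, 27.5 and 52.4 CPM in low-score cells. Neither reached 1.5-fold in any library. Hif3a and Vhl were the 2 higher genes of the 7 machinery genes compared, where 6.02% of all compared genes were higher. Hif3a had 32.8, 26.3 and 14.2 CPM in hypoxia-state cells and 13.9, 12.8 and 5.53 CPM in low-score cells.

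Glycolysis was the list with the largest share of higher genes shown here, 13 of 16 compared and none lower. Among all compared genes 6.02% were higher and 8.04% lower. The glycolysis median was 2.16, 2.24 and 1.11 on the log2 scale in Progesterone 2, Progesterone 3 and Placebo 2. The higher genes covered most steps of the pathway, from the transporter Slc2a1 to the lactate dehydrogenase Ldha. Between them came Hk2, Gpi1, Pfkp, Pfkl, Aldoa, Aldoc, Tpi1, Gapdh, Pgk1, Pgam1 and Pkm. The listed enolase genes, Eno1 and Eno2, were under the level limit, so that step was not covered. Slc2a1 had 496, 447 and 417 CPM in hypoxia-state cells and 49.2, 46.1 and 91.7 CPM in low-score cells. Pgk1, a kinase that makes ATP in the pathway, had 949, 1027 and 1277 CPM in hypoxia-state cells and 162, 163 and 582 CPM in low-score cells. Ldha had 1506, 1704 and 1660 CPM in hypoxia-state cells and 368, 369 and 844 CPM in low-score cells. In hypoxia-state cells each of these 3 genes stayed within 1.5-fold across the libraries, and in low-score cells Placebo 2 had the highest level of each. Hk1 and Pfkm were compared and did not reach the mark. The lactate exporter Slc16a1 had 7.07, 6.28 and 30.6 CPM in hypoxia-state cells and 18.2, 15.7 and 45.9 CPM in low-score cells, and Slc16a3 had at most 0.453 CPM in hypoxia-state cells.

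Among collagen-modifying enzymes P4ha1, Plod1 and P4hb were higher, and Plod3 and Colgalt1 were lower, out of 5 compared. P4ha1 had 342, 310 and 298 CPM in hypoxia-state cells and 45.9, 45.4 and 103 CPM in low-score cells. Lox and Loxl2, which crosslink collagen and are induced by hypoxia in many tumours, had at most 0.843 CPM in hypoxia-state cells. Of 16 mitophagy and autophagy genes compared, 4 were higher and none lower, where 6.02% of all compared genes were higher and 8.04% lower. Bnip3l, the paralogue of Bnip3, had 304, 296 and 290 CPM in hypoxia-state cells and 55.1, 59.3 and 83.6 CPM in low-score cells, and the cargo receptors Calcoco1 and Optn and the kinase Ulk1 were the others. Pink1 stayed under the level limit.

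Chaperones of the unfolded protein response, by which the endoplasmic reticulum answers misfolded proteins, were high in the same cells. Of 17 genes compared, 10 were higher and none lower, where 6.02% of all compared genes were higher and 8.04% lower. The list median was 1.37, 1.30 and 0.63 on the log2 scale in Progesterone 2, Progesterone 3 and Placebo 2. Hspa5, the chaperone BiP, had 2770, 2812 and 1651 CPM in hypoxia-state cells and 520, 545 and 724 CPM in low-score cells. Sdf2l1 had 353, 319 and 242 CPM in hypoxia-state cells and 47.2, 48.0 and 79.2 CPM in low-score cells. Hsp90b1 had 2249, 1981 and 1226 CPM in hypoxia-state cells and 461, 463 and 575 CPM in low-score cells. For these chaperones the progesterone libraries were the highest in hypoxia-state cells and the lowest in low-score cells. The integrated stress response, which acts through Atf4, was split. Ddit3 (CHOP), Trib3 and Cebpb were higher, Psat1 and Phgdh, which make serine, were lower, and 8 of the 13 genes compared did neither. Ddit3 had 226, 179 and 69.1 CPM in hypoxia-state cells and 22.95, 25.8 and 20.2 CPM in low-score cells. Phgdh had 23.8, 41.7 and 51.5 CPM in hypoxia-state cells and 119, 118 and 159 CPM in low-score cells.

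Lower genes were frequent in the lists of DNA replication and cholesterol synthesis. Of 14 S-phase genes compared, 10 were lower and none higher, where 8.04% of all compared genes were lower, and the list median was -1.27, -1.07 and -0.93. Mcm2, a subunit of the replicative helicase, had 8.79, 6.54 and 13.7 CPM in hypoxia-state cells and 37.8, 32.1 and 33.1 CPM in low-score cells. Pcna had 33.5, 35.2 and 51.7 CPM in hypoxia-state cells and 67.3, 58.8 and 87.9 CPM in low-score cells. The rule had already removed mitotic cells from both sets, and of 19 other mitotic genes 3 passed the level limit, of which Cdk1 and Anln were lower. The cyclin-dependent kinase inhibitor Cdkn1a was higher, with 382, 339 and 366 CPM in hypoxia-state cells and 163, 173 and 94.2 CPM in low-score cells. Of 19 cholesterol genes compared, 12 were lower and none higher, with a median of -0.95, -0.78 and -0.82. Cyp51, a sterol demethylase that uses oxygen, had 10.3, 12.1 and 32.0 CPM in hypoxia-state cells and 31.6, 32.5 and 75.1 CPM in low-score cells. Idi1, which uses no oxygen, was lower as well (13.1, 16.3 and 33.9 CPM in hypoxia-state cells and 58.7, 55.2 and 88.2 CPM in low-score cells). Sqle, which uses oxygen, did not reach the mark in either direction. It had 179, 190 and 364 CPM in hypoxia-state cells against 136, 144 and 275 CPM in low-score cells. These genes are examples, and the part of oxygen use in the levels of this list was not tested.

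Oxidative phosphorylation genes leaned down without reaching the mark in most cases. Of 28 compared, 4 were lower and none higher, where 8.04% of all compared genes were lower and 6.02% higher. The list median was -0.57, -0.40 and -0.26. The lower genes were Cycs, Ndufa4, Sdhb and Uqcrc1. Cycs, cytochrome c, had 85.3, 85.7 and 245 CPM in hypoxia-state cells and 379, 354 and 619 CPM in low-score cells. Of 16 genes of the tricarboxylic acid cycle 1 was lower, Idh3a, and none higher. None of 24 ribosomal protein genes reached the mark either way. The list of iron handling and oxidative stress was split, with 4 of 12 compared genes higher, 3 lower and 5 neither. The metallothioneins Mt1 and Mt2, the haem oxygenase Hmox1 and the transferrin receptor Tfrc were the higher ones, and Prdx1, Gclm and Txnrd1 the lower ones. Prdx1, a peroxiredoxin, had 327, 342 and 599 CPM in hypoxia-state cells and 1103, 1020 and 1250 CPM in low-score cells.

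Of 13 chemokine, cytokine and growth factor ligands compared, Pgf and Vegfb were higher, Areg, Ereg and Tgfb1 were lower and 8 were neither, where 6.02% of all compared genes were higher and 8.04% lower. Areg and Ereg are ligands of the EGF receptor. Areg had 736, 591 and 1961 CPM in hypoxia-state cells and 2432, 1940 and 5628 CPM in low-score cells, and Ereg had 259, 210 and 815 CPM in hypoxia-state cells and 682, 501 and 1553 CPM in low-score cells. Of 12 immune-related ligands and enzymes compared, Ptges, Arg1 and Cd274 were higher and Cd55 and Lgals1 lower. Ptges, which makes prostaglandin E2, had 108.8, 110 and 22.4 CPM in hypoxia-state cells and 9.42, 12.0 and 5.31 CPM in low-score cells. Arg1, which splits arginine, had 397, 340 and 45.4 CPM in hypoxia-state cells, 59.9, 51.2 and 17.9 CPM in low-score cells and 288, 252 and 435 CPM in Ptprc-positive barcodes. Cd274 (PD-L1), the ligand of the checkpoint receptor PD-1, had 42.1, 47.2 and 62.2 CPM in hypoxia-state cells, 12.0, 11.8 and 15.5 CPM in low-score cells and 103, 128 and 61.8 CPM in Ptprc-positive barcodes. In the MHC class I list 3 of 13 genes were higher, H2-T23, H2-Q4 and Tap1, and the light chain B2m had 1351, 1258 and 3021 CPM in hypoxia-state cells and 2158, 1976 and 2279 CPM in low-score cells.

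The 12 lowest ratios belonged to Wfdc12, Kcne3, Fgb, Prkg2, Ppa1, Wfdc18, Celf4, Lor, 5730522E02Rik, Il33, BC018473 and Ctps. Ppa1, the cytosolic pyrophosphatase that clears a by-product of biosynthesis, had 61.6, 63.6 and 143 CPM in hypoxia-state cells and 355, 322 and 330 CPM in low-score cells. Il33, a cytokine that acts through the receptor St2, had 8.61, 6.11 and 45.5 CPM in hypoxia-state cells and 44.6, 46.2 and 102 CPM in low-score cells. Ctps, which makes CTP for nucleic acids, had 8.97, 10.9 and 17.1 CPM in hypoxia-state cells and 68.3, 55.2 and 64.96 CPM in low-score cells. Luminal identity genes were mostly even, with 1 of 12 lower (Areg), near the 8.04% of all compared genes. The progesterone receptor gene Pgr had 194, 211 and 286 CPM in hypoxia-state cells and 168, 193 and 222 CPM in low-score cells, and the oestrogen receptor gene Esr1 had 132, 115 and 114 CPM in hypoxia-state cells and 281, 284 and 138 CPM in low-score cells. Calca, the calcitonin gene, which some tumour cells of the progesterone libraries carry at high levels, had 5.71 and 3.31 CPM in hypoxia-state cells and 173 and 132 CPM in low-score cells of Progesterone 2 and Progesterone 3. In Placebo 2 it had no UMI in hypoxia-state cells and 0.0159 CPM in low-score cells.

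**Figure D3:**
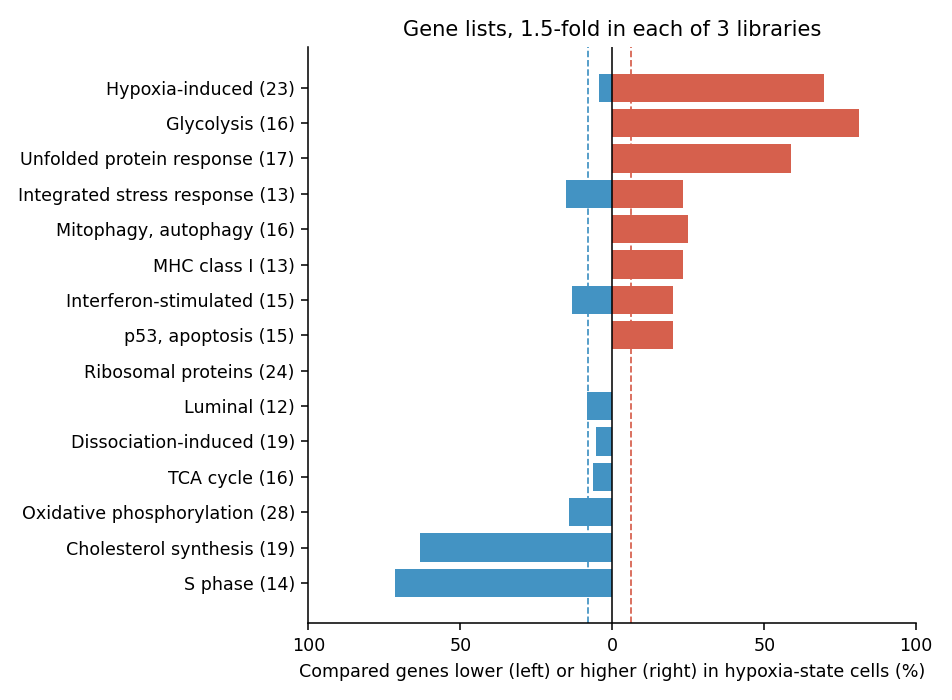
Share of the compared genes of each list (number in brackets) that were at least 1.5-fold higher (right, red) or lower (left, blue) in hypoxia-state than in low-score cells in each of 3 libraries. Dashed lines mark the shares over all 8260 genes, 6.02% higher and 8.04% lower; hypoxia-induced, glycolysis and unfolded protein response lists lie to the right and the cholesterol and S-phase lists to the left.

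The change along the score was read in 10 equal bins of each pool, bin 10 being the hypoxia-state cells but for at most 1 cell. Vegfa stood at 59.2, 57.6, 59.0, 67.1, 68.8, 83.5, 108, 169, 262 and 548 CPM from bin 1 to bin 10 of Progesterone 2, and at 47.3, 55.2, 61.8, 62.2, 74.2, 81.2, 101, 127, 170 and 279 CPM in Placebo 2. Hspa5 stayed at 491 to 556 CPM over bins 1 to 7 of Progesterone 2 and then stood at 696, 1442 and 2776 CPM, and in Placebo 2 it stayed at 689 to 828 CPM through bin 9 and stood at 1651 CPM in bin 10. The chaperone was thus high in the last bins only, while Nop56, a nucleolar protein needed to make ribosomes, was lower in each of bins 3 to 10 than in bin 1 in all 3 libraries. Nop56 had 116 CPM in bin 1 and 24.3 CPM in bin 10 of Progesterone 2, and 202 and 40.5 CPM in those bins of Placebo 2. Krt8, one of the tumour-cell markers of the pool, had 4371 and 4654 CPM in bins 1 and 10 of Progesterone 2 and 7667 and 6689 CPM in those of Placebo 2.

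**Figure D4:**
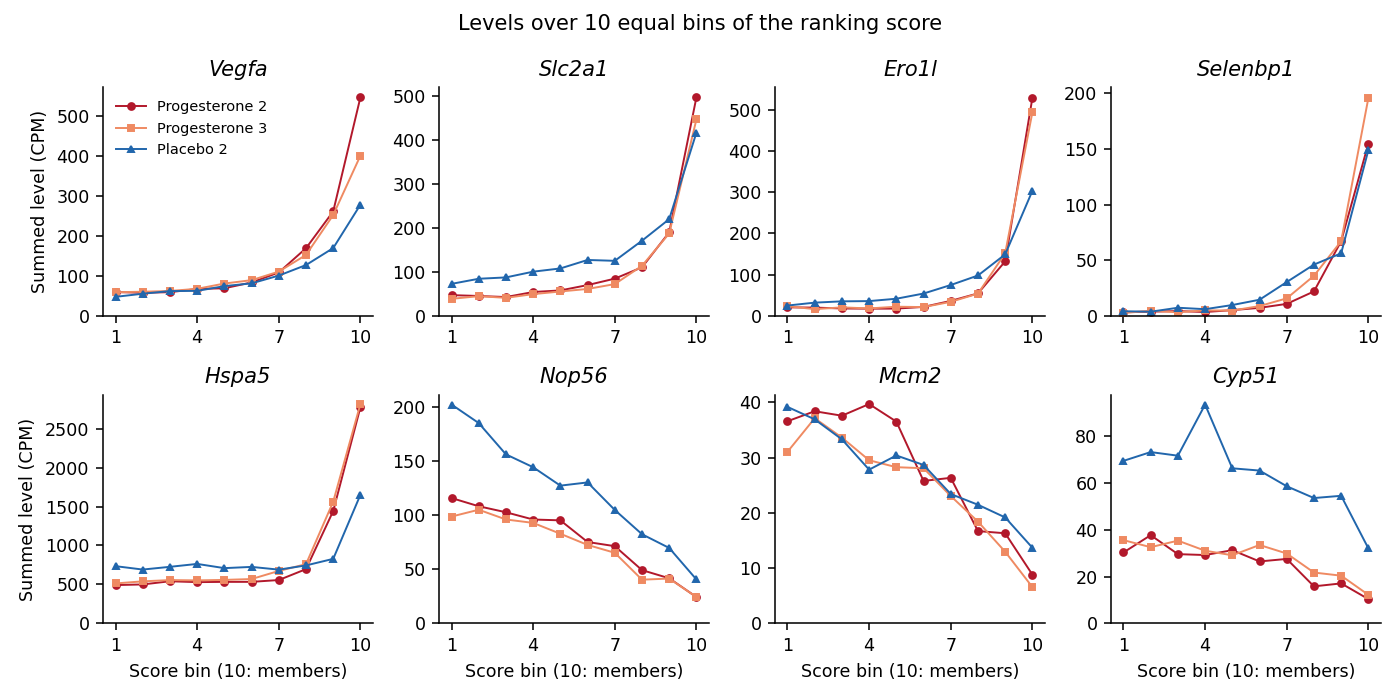
Summed level (CPM, y axis) of 8 genes over 10 equal bins of the ranking score (x axis, 10 being the hypoxia-state cells), 1 line for each library. Vegfa, Slc2a1, Ero1l and Selenbp1 climb through the upper bins, Hspa5 stands high from bin 9 in the progesterone libraries and in bin 10 of Placebo 2, and Nop56, Mcm2 and Cyp51 are lowest in bin 10.

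Marks of RNA quality and handling moved in part with the state. Nuclear RNAs (Malat1, Neat1, Kcnq1ot1 and Meg3) summed to 39330, 37860 and 24540 CPM in hypoxia-state cells and 27310, 30220 and 18520 CPM in low-score cells of Progesterone 2, Progesterone 3 and Placebo 2. Immediate early and heat shock genes, which tissue dissociation induces, summed to 14280, 10960 and 12780 CPM in hypoxia-state cells. In low-score cells they summed to 11960, 11530 and 10350 CPM. Of 19 compared, 1 was lower, Hspe1, where 8.04% of all compared genes were lower. The part of these marks in the results was not tested. With hypoxia-state and low-score cells taken within bins of equal total UMIs, 425 genes were higher and 542 lower, of which 414 and 510 were among the 497 and 664. With cells ranked on a random 50% of their UMIs and summed on the rest, 478 were higher and 673 lower. The number of calls depended on the placebo library and on the limits, being 757 higher and 1192 lower without Placebo 2, 319 and 364 with the top 20% of the pool, and 160 and 143 at 2-fold.

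Because the top 10% fixes the share of each library, the share over 1 common limit was counted as well. Over 2175.9 CPM stood 9.84% of the Progesterone 2 pool (237 of 2408 cells, 95% exact Clopper-Pearson interval 8.68 to 11.1%), 9.76% of the Progesterone 3 pool (268 of 2746, 8.67 to 10.9%) and 10.4% of the Placebo 2 pool (301 of 2900, 9.29 to 11.5%). The 3 intervals overlap. At the 80th percentile of the joined pools the shares were 17.9% and 18.7% with progesterone and 23.4% with placebo, and at the 95th they were 5.56%, 4.84% and 4.59%, so the order of the libraries turned with the limit. With 1 placebo library against 2 progesterone libraries an exact permutation cannot go below p = 0.333, and no test was made. The intervals cover counting error only.

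Batch 1 was sequenced less deeply and held few cells that met all of the pool's limits, 65 in Progesterone 1 and 19 in Placebo 1. The limit of 5000 UMIs alone was met by 1251 of 2241 barcodes in Progesterone 1 and by 4140 of 4940 in Placebo 1. In Progesterone 1, which the rule did not use, 18 of 65 cells (27.7%, exact interval 17.3 to 40.2%) lay over the common limit, and in Placebo 1 it was 0 of 19 cells (0 to 17.6%). The same ranking gave 6 hypoxia-state and 32 low-score cells in Progesterone 1. Of the 497 genes higher in batch 2, 368 (74.0%) were at least 1.5-fold higher in these 6 cells too, where 25.8% of all compared genes were. Of the 664 lower genes 515 (77.6%) were at least 1.5-fold lower, where 40.4% of all compared genes were. Of the glycolysis genes 13 of 16 were at least 1.5-fold higher in the 6 cells and 1 lower, and of the hypoxia-induced genes 16 of 23 were higher and 6 lower. Some genes higher in batch 2 went the other way, with no UMI of Car12 or Egln3 in the 6 cells and 19 UMIs of each in the 32, and with 4 UMIs of Rora (36.1 CPM) in the 6 cells and 397 UMIs (447 CPM) in the 32. Vegfa had 86 UMIs (777 CPM) in the 6 cells and 35 UMIs (39.4 CPM) in the 32, and Selenbp1 had 17 UMIs (154 CPM) in the 6 cells against 5 UMIs (5.63 CPM) in the 32, while Pgf had no UMI in the 6 cells and 5 UMIs in the 32. These are single sums over few cells with no replicate.

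Progesterone was then set against placebo within the hypoxia-state cells, a comparison the ranking within libraries does not use. Of 12382 genes tested with edgeR on summed UMIs, 2143 (17.3%) were higher and 2286 (18.5%) lower with progesterone at an adjusted p under 0.05, and 5517 had an unadjusted p under 0.05. The test had 1 residual degree of freedom, from Progesterone 2 and Progesterone 3, and it assumes that the lone placebo library varies like them. DESeq2 called 893 and 952 genes.

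Vessel growth factors and several HIF targets stood higher with progesterone in these cells. Pgf, with 49.5 and 49.1 CPM in Progesterone 2 and Progesterone 3 and 6.37 CPM in Placebo 2, rose with a log2 difference of 2.92 (SE 0.17, edgeR adjusted p = 1.23e-08). Vegfa rose by 0.73 (SE 0.17, adjusted p = 0.00651), a call that DESeq2 did not make. Ankrd37 rose by 0.97 (SE 0.12, adjusted p = 2.22e-05), Car12 by 1.81 (SE 0.18, adjusted p = 3.20e-06), Rora by 1.40 (SE 0.13, adjusted p = 1.52e-06) and Ero1l by 0.72 (SE 0.13, adjusted p = 5.88e-04). In the other direction Egln3 fell by 4.33 (SE 0.37, adjusted p = 0.00511) and Pdk1 fell by 0.94 (SE 0.12, adjusted p = 2.35e-05). For Egln3 the difference was -4.98 without Progesterone 2 and -3.87 without Progesterone 3. Over the 29 hypoxia-induced genes tested, 12 rose and 4 fell, where 17.3% of all tested genes rose and 18.5% fell. The median log2 difference of the list was 0.32, against 0.01 over all genes. The markers of the state did not pass, with Selenbp1 at a log2 difference of 0.20 (SE 0.14, adjusted p = 0.291) and F3 at -0.10 (SE 0.16, adjusted p = 0.652).

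Of 18 glycolysis genes tested, 3 rose (Pfkp, Pgam1 and Gpi1) and 2 fell (Pgk1 and Slc16a1), a share near that of all genes. Pfkp rose by 0.60 (SE 0.12, adjusted p = 0.00114) and Slc16a1 fell by 2.23 (SE 0.17, adjusted p = 1.55e-07). Pgk1 fell by 0.40 (SE 0.14, adjusted p = 0.0357), and it did not pass with hypoxia-state cells taken over 1 common limit. Of 17 unfolded protein response genes 7 rose and 1 fell, where 17.3% of all tested genes rose and 18.5% fell. Hspa5 rose by 0.73 (SE 0.16, adjusted p = 0.00212). Ddit3 rose by 1.52 (SE 0.15, adjusted p = 2.50e-06), Ptges by 2.26 (SE 0.13, adjusted p = 1.49e-08), Arg1 by 2.99 (SE 0.15, adjusted p = 2.90e-09) and the clock-output factor Dbp by 1.55 (SE 0.13, adjusted p = 5.92e-07). Of 16 p53 and apoptosis genes 11 rose and none fell, while 14 of 20 cholesterol genes and 10 of 15 MHC class I genes fell, against the same shares over all genes. Of 10 fibroblast markers 7 fell, and their sums were 15.7 and 15.9 CPM with progesterone against 80.7 CPM in Placebo 2. Endothelial markers summed to 7.52 and 10.5 CPM with progesterone against 43.6 CPM in Placebo 2, and to 16.0 and 15.9 CPM against 69.9 CPM in low-score cells, and basal and mesenchymal genes to 153 and 128 CPM with progesterone against 643 CPM in Placebo 2. The part of these 3 lists in the other results was not tested.

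Most of the largest differences between treatments were present in low-score cells as well. By the rule for named genes the largest increases included Smgc, Muc19, Defb1, 2610528A11Rik and Kif26b, and the 6 largest decreases were in Dcpp1, Defb45, Gcg, Fgg, Wfdc3 and Ifitm1. Smgc, a submandibular gland protein gene, had 31.3 and 45.4 CPM with progesterone and no UMI in Placebo 2, which is at least 137-fold higher if 3 UMIs are allowed to the placebo group. Dcpp1 had no UMI in the progesterone libraries and 227 CPM in Placebo 2, at least 1728-fold lower by the same allowance over the group. Low-score cells differed in the same way, with 72.0 and 64.0 CPM of Smgc in the progesterone libraries and none in Placebo 2, and with 0.0971 and 11.2 CPM of Dcpp1 against 267 CPM. Muc19, Defb1 and Defb45 had 1 UMI in 1 treatment, and their ratios were 495 (95% counting interval 88.6 to 19550), 392 (70.1 to 15485) and 2138 (383 to 84509), the last with placebo over progesterone. Gcg, the glucagon gene, had 0.181 and 0.764 CPM in hypoxia-state cells with progesterone and 340 CPM in Placebo 2, a difference that did not pass with the top 20% of the pool. The clearest exception was 2610528A11Rik. It had 47.1 and 44.5 CPM in hypoxia-state cells of the progesterone libraries against 0.468 CPM in Placebo 2, and only 0.307, 0.446 and 0.111 CPM in low-score cells.

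**Figure D5:**
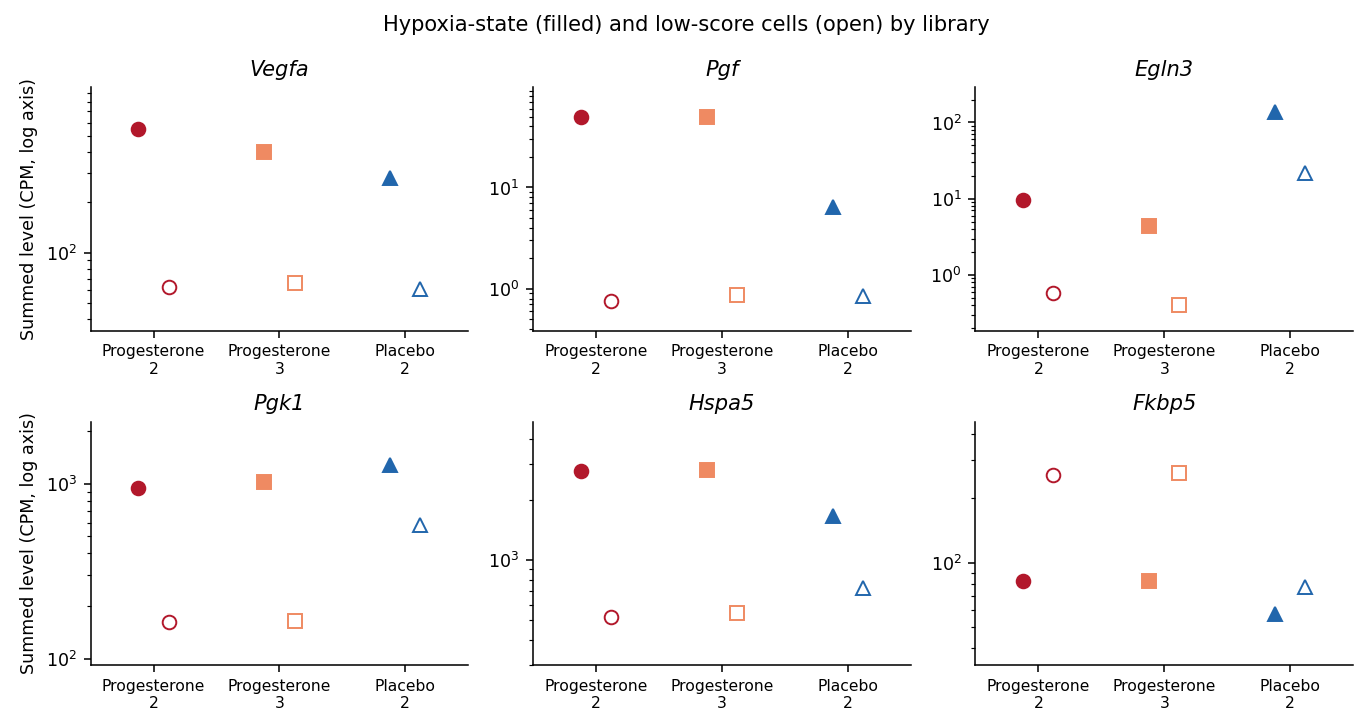
Summed level (CPM, y axis, log scale) of 6 genes in hypoxia-state cells (filled) and low-score cells (open) of each library (x axis). Pgf and Vegfa separate the libraries in hypoxia-state cells alone, Egln3 is highest in both cell sets of Placebo 2, Pgk1 has its highest low-score level in Placebo 2 (582 CPM), and Fkbp5 is highest in low-score cells of the progesterone libraries.

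The last comparison asked whether the ratio of hypoxia-state to low-score cells differed between treatments. Of 14774 genes tested with edgeR, the ratio was larger with progesterone for 864 (5.85%) and smaller for 421 (2.85%), at an adjusted p under 0.05, and 2863 genes had an unadjusted p under 0.05. Like the treatment test, it had 1 residual degree of freedom, from Progesterone 2 and Progesterone 3, with Placebo 2 as the only placebo library. DESeq2 called 202 and 67. The low-score cells of the progesterone libraries had a lower median ranking score (84.2 and 93.2 CPM) than those of Placebo 2 (230 CPM). The same rule thus spans a shorter range in Placebo 2, and its part in the result was not tested. The ranking genes, which chose the cells, had larger ratios with progesterone as well. Their log2 differences were 1.92 for Ndrg1, 1.67 for Bnip3 and 1.03 for P4ha2. Counts and p-values below for genes that vary with the score are therefore no independent evidence of a treatment effect. Of 31 hypoxia-induced genes 18 had a larger ratio with progesterone and none a smaller one. For glycolysis it was 14 of 19 larger and 1 smaller, and for the unfolded protein response 15 of 17 larger and 1 smaller. The ratio was also larger for 7 of 10 fibroblast markers, whose part in the result was not tested.

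For glycolysis the difference lay mainly in the low-score cells. The ratio of Pgk1 had a log2 difference of 1.59 between treatments (SE 0.19, adjusted p = 6.67e-14), with 162 and 163 CPM in low-score cells under progesterone against 582 CPM under placebo, while in hypoxia-state cells Placebo 2 had the most. Aldoa was larger by 1.74 (SE 0.22, adjusted p = 9.79e-13), Ldha by 1.27 (SE 0.21, adjusted p = 1.31e-07) and Slc2a1 by 1.24 (SE 0.16, adjusted p = 3.47e-12). For Pgf the difference lay in the hypoxia-state cells, since its low-score level was 0.760 to 0.859 CPM in all 3 libraries. Its ratio was larger by 3.15 (SE 0.34, adjusted p = 6.58e-18). Hspa5 moved on both sides and was larger by 1.32 (SE 0.22, adjusted p = 2.14e-07), and Hsp90b1 by 1.22 (SE 0.21, adjusted p = 6.00e-07). Selenbp1 was larger by 1.01 (SE 0.17, adjusted p = 2.09e-07). F3, with a difference of 0.24 (SE 0.21, adjusted p = 0.594), and Gbe1, with 0.25 (SE 0.15, adjusted p = 0.375), did not pass the test. Egln3 passed with 1.29 (SE 0.24, adjusted p = 5.61e-06), although its level was far higher in both cell sets of Placebo 2. Its low-score level under progesterone was under 1 CPM, so its ratio there rests on a value near the floor.

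Of 14 genes that told the tumours of these libraries apart in earlier results, 5 had a smaller ratio with progesterone and none a larger one. Over all tested genes 2.85% had a smaller ratio and 5.85% a larger one. Some of the 14 are known to answer the progesterone and glucocorticoid receptors. Fkbp5, a chaperone partner of both receptors, had 82.2, 81.9 and 57.5 CPM in hypoxia-state cells and 256, 263 and 77.1 CPM in low-score cells of Progesterone 2, Progesterone 3 and Placebo 2. Its ratio was smaller with progesterone (log2 -1.11, SE 0.16, adjusted p = 3.05e-10). The transcription factor gene Zbtb16 had 94.7, 79.5 and 9.56 CPM in hypoxia-state cells and 152, 155 and 7.09 CPM in low-score cells (log2 -1.13, SE 0.21, adjusted p = 5.98e-06). Igfbp5, a binding protein of insulin-like growth factors, had 233, 241 and 30.2 CPM in hypoxia-state cells and 419, 451 and 25.4 CPM in low-score cells (log2 -1.0, SE 0.18, adjusted p = 2.68e-06), though with the top 20% of the pool it did not pass. Esr1 went the same way (log2 -0.79, SE 0.16, adjusted p = 2.21e-05). Under progesterone these transcripts were thus lower in hypoxia-state than in low-score cells, and under placebo they were nearer to level. That list was chosen on these samples, so its count is no independent evidence, and these 4 genes were picked after their values were seen.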

How the data were processed

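The matrices deposited by the authors hold raw UMI counts and were not changed. Cell Ranger 8.0.1 made them per the file headers. Version 7.0.0 and the build mm10 stand in the submitters' processing notes. Per the labels' protocols the libraries are 10x 3′ libraries.

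A pool was taken in each batch 2 library: at least 5000 UMIs, at least 0.4% of UMIs from Krt8, Krt18, Krt19 and Epcam, at most 1 Ptprc UMI, and under 10 UMIs in all of Top2a, Ube2c, Cenpf, Tpx2 and Ccnb2. Cells were ranked by the summed share of Ndrg1, P4ha2 and Bnip3. UMIs were summed over the top 10% and over the lowest 50%, and CPM were computed from the sums. A gene was compared at a mean of 10 CPM, with 13 genes of the rule left out and a pseudocount of 1 CPM, and called at 1.5-fold in each of 3 libraries. Treatment and the treatment-by-state term (library, state and state by treatment) were tested by quasi-likelihood in edgeR 4.0.16 under R 4.3.3, with TMM, filterByExpr and robust settings, with Benjamini-Hochberg adjustment over all genes and a threshold of 0.05. DESeq2 1.42.0 was an alternative. On simulated counts the treatment test recovered 87% of 2-fold and 100% of 4-fold changes, and the other 58% and 99%. The simulation gave all genes the same fixed dispersion and planted changes only in genes with many UMIs. These shares are therefore not the power of the tests on these libraries. Doublets were scored with scanpy 1.11.5 and kept.

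Genes named are the 5 markers, the 12 highest and 12 lowest ratios, the 6 largest differences of each test and direction among passing genes above the median level, and examples of lists; 1 gene that the rule names is not reported here. The members, the lists and the rule were chosen with earlier results of these data known, and 3 more lists after the values were seen. Ero1a is listed in the tables by its older symbol, Ero1l. Ptprc-positive barcodes had at least 5000 UMIs, at least 2 Ptprc UMIs and under 0.4% of UMIs from Krt8, Krt18, Krt19 and Epcam (678 to 1004 in each library). Batch 1 was described apart, because few of its cells met the pool's limits.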

Additional observations from a re-analysis of the deposited data

Results flagged for a closer look

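For 12 genes the ratio of hypoxia-state to low-score cells differed between treatments, in size or in direction. They passed the edgeR test of the difference itself and stood out by size among genes above the median level. Differences are log2, progesterone minus placebo.

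The first 6 were larger with progesterone. Ak4, a mitochondrial adenylate kinase, was larger by 3.35, with 82.3 and 79.0 CPM in hypoxia-state cells and 7.18 and 7.93 CPM in low-score cells of the progesterone libraries, against 5.53 and 4.85 CPM in Placebo 2. BC100530 was larger by 2.91, Acap1 by 2.90, Gm5662 by 2.54 and the phosphofructokinase Pfkp by 2.27. Acap1 and Gm5662 differed in direction. The log2 ratio of Acap1 was 1.92, 1.93 and -0.11 in Progesterone 2, Progesterone 3 and Placebo 2, and that of Gm5662 was 1.01, 0.33 and -1.39. Low-score cells of the progesterone libraries held 2.46 to 3.72 CPM of BC100530 and 23.2 to 24.9 CPM of Pfkp, against 50.5 CPM and 68.7 CPM in those of Placebo 2. Wfdc18 was larger by 4.69, though it was lower in hypoxia-state cells of each library (log2 ratios of -2.30, -0.98 and -5.34). It had 7 and 61 UMIs in hypoxia-state cells of Progesterone 2 and Progesterone 3 and 12 UMIs in those of Placebo 2. Low-score cells of these libraries held 437, 679 and 5355 UMIs. The difference of Wfdc18 did not pass against all other cells of the pool. Without Progesterone 3 its difference was 2.80.

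The other 6 were smaller with progesterone, namely Dcpp1 (-10.39), Wfdc12 (-3.10), the fibrinogen gene Fgg (-2.86), Ntm (-2.02), Enho (-1.83) and Lbp (-1.73). Ntm, Enho and Lbp differed in direction, with negative log2 ratios in both progesterone libraries and positive ones in Placebo 2 (0.49, 0.19 and 0.29). The fitted value for Dcpp1 is no measured fold, because hypoxia-state cells of the progesterone libraries had no UMI of it. In Progesterone 3 low-score cells had 678 UMIs (11.2 CPM), at least 44-fold above the 0.255 CPM that 3 UMIs would give in the hypoxia-state cells, and in Progesterone 2 they had 6 UMIs. Without Progesterone 3 its fitted value was -4.62. Fgg had 2 UMIs in hypoxia-state cells of each progesterone library, and Wfdc12 had 4 and 16, so their fitted values rest on few UMIs. On the log2(CPM + 1) scale the ratios of Fgg were -1.41, -2.19 and -1.19 in Progesterone 2, Progesterone 3 and Placebo 2. Lbp stood at -0.99 without Progesterone 2 and -2.56 without Progesterone 3, and Wfdc12 at -4.27 without Progesterone 3. With DESeq2 the differences of Dcpp1, Wfdc12, Fgg and Lbp did not pass, and with the top 20% of the pool those of Dcpp1, Wfdc12 and Ntm did not.

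The share of Progesterone 1 pool cells over the common limit was 27.7% (18 of 65 cells), in a library that the comparisons do not use, against 0 of 19 cells in Placebo 1 of the same batch. No test was made of this pair of libraries.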

How the results depend on the processing

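No paired analysis was possible because batch 2 holds 1 placebo library, so treatments could not be paired. The cell sets were compared within each library. Counts of genes higher and lower in hypoxia-state cells were 282 and 247 with a mean of at least 50 CPM, 160 and 143 at 2-fold in each library, and 319 and 364 with the top 20% of the pool. Leaving out 1 library gave 510 to 757 higher and 699 to 1192 lower genes, the largest numbers without Placebo 2. DESeq2 called 893 genes higher and 952 lower with progesterone, and 202 with a larger and 67 with a smaller ratio. Shares over a common limit at the 95th percentile were 5.56% in Progesterone 2, 4.84% in Progesterone 3 and 4.59% in Placebo 2, and at the 80th percentile 17.9%, 18.7% and 23.4%. The difference of ratios reversed for Fgg with the top 20% (0.93), and the cause was not tested. With the top 10% Fgg had 2 UMIs in hypoxia-state cells of each progesterone library. Of the other named differences of ratios none reversed. The direction of the named genes in hypoxia-state against low-score cells reversed in none of 525 recomputed values, and 42 of these moved by more than the spread between libraries. Bins of total UMIs, and hypoxia-state cells taken over 1 common limit for the treatment test, were added after seeing the data. Depth limits genes under 10 CPM, which had few UMIs in 241 to 290 cells. Leaving out a progesterone library leaves no residual degree of freedom, so those values have no test.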

Other observations

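The 3 gene groups given here were drawn up after the values were seen, and they are given as counts and levels only. Of 11 genes of glycogen metabolism compared, 6 were higher in hypoxia-state than in low-score cells in each library, none was lower and 5 were neither, where 6.02% of all compared genes were higher. The glycogen synthase Gys1 had 138, 132 and 127 CPM in hypoxia-state cells and 21.4, 22.4 and 27.9 CPM in low-score cells of Progesterone 2, Progesterone 3 and Placebo 2. Stbd1, which tethers glycogen to membranes, had 85.5, 100.4 and 53.5 CPM in hypoxia-state cells and 12.5, 14.0 and 16.0 CPM in low-score cells. The phosphorylase Pygb had 13.3, 17.1 and 19.3 CPM in hypoxia-state cells and 23.7, 26.0 and 22.1 CPM in low-score cells, and did not reach the mark.

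Of 12 clock genes compared, 7 were higher and none lower, where 6.02% of all compared genes were higher and 8.04% lower. Nr1d1, a repressor of the circadian clock, had 77.9, 65.7 and 26.1 CPM in hypoxia-state cells and 10.0, 10.8 and 6.04 CPM in low-score cells, and Per1 had 44.6, 38.1 and 21.5 CPM in hypoxia-state cells and 14.8, 17.4 and 9.91 CPM in low-score cells. Clock itself had 67.6, 65.9 and 76.8 CPM in hypoxia-state cells and 96.4, 98.1 and 87.0 CPM in low-score cells.

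Of 21 genes of ribosome production and nucleotide supply compared, 16 were lower and none higher, against 8.04% of all genes. Nop56 had 24.2, 24.2 and 40.5 CPM in hypoxia-state cells and 103, 94.7 and 160 CPM in low-score cells. Myc had 29.7, 24.7 and 26.6 CPM in hypoxia-state cells and 36.5, 33.6 and 33.3 CPM in low-score cells, short of the mark in each library.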
